A study of Rattus norvegicus with 25 samples.

Results

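Set b6995 comprises 137 of the 4441 probes of the HuGChip, a microarray designed for the bacteria of the human gut and used here on rat faeces. Its members are all probes whose name begins with b6995. Membership rests on the name, but the set itself was picked for description with its wide detection already known, so its rank in detection is a description. The number after the set's name is called the probe group here and the last number the variant. The sources used here pair no bacterial taxon with the set, so none is named. The set is the 6th largest of 66.

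Faecal DNA of Wistar rats was measured after 12 weeks on a diet with a control oil of equal energy (PO, 6 samples), the control oil with aleurone (A+PO, 6 samples), linseed oil (LO, 6 samples) or linseed oil with aleurone (A+LO, 7 samples). Aleurone is the cell layer under the outer bran of a cereal grain, and linseed oil is a plant source of omega-3 fatty acid. The 25 samples were hybridised to 13 arrays, with a Cy3 sample and a Cy5 sample on 12 of them. Every aleurone sample was labelled with Cy5 and every other sample with Cy3. Aleurone and dye therefore cannot be told apart. All control-oil arrays lay on 1 slide and all linseed arrays on another. The oil cannot be told apart from the slide either. The array files give 4 of the A+LO samples other numbers than the labels do. These are named after the LO sample that shared their array, as in A+LO with LO 4. Nothing in the labels says whether samples of a group came from separate animals or cages, so the p-values measure the spread between these samples.

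The 16S rRNA gene is carried by all bacteria and mixes stretches that hardly vary between species with stretches that vary a great deal. An array of this kind carries short probes for several stretches of the gene, and amplified 16S genes from a sample light up the probes they can pair with. Where a target stretch varies among related bacteria, a probe is commonly made in several variants that spell out the alternatives. A 25-base probe can also pair with a target that differs from it in a few bases, and neighbouring variants can then respond to the same target.

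The 137 members, each of 25 bases, fell into 5 probe groups of 102, 13, 6, 6 and 10 variants. In group 1, the 96 variants from b6995_1_7 to b6995_1_102 were 1 systematic series. They shared their first 17 bases, were identical at 20 of 25 positions and held every one of the 96 possible combinations of the bases used at the other 5 positions. Counted from 1 at the 5′ end and written against b6995_1_7, the changes were A18G, T20C, T20G, C21T, A22C, A22G, A22T and C23T. The first and the last of the series are shown as the files give the letters, read as 5′ to 3′, with the 5 varied positions in capitals.

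b6995_1_7: cggtgacagtgggaagcAaTCACgc
b6995_1_102: cggtgacagtgggaagcGaGTGTgc

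The other 6 variants of group 1 are shown because they stood apart from the series in sequence and, for 3 of them, in detection, with b6995_1_2 in 0 samples, b6995_1_3 in 3 and b6995_1_6 in 20 against 22 to 25 for the series. Capitals mark the bases that differ from b6995_1_7.

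b6995_1_1: cggtgacagtgggCagcaaGcacgc
b6995_1_2: cAACTacagtgggCagcaatcCcgc
b6995_1_3: cAACTacagtgggCagcGaCcCTgc
b6995_1_4: cggtgacagtgggCagcGaGcacgc
b6995_1_5: cggtgacagtgggCagcGaGTGcgc
b6995_1_6: cggtgacagtgggCagcaatcTcgc

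Group 5 is shown through the 2 variants that gave a wide signal, b6995_5_6 and b6995_5_5, and through 2 close relatives of b6995_5_6 that gave none. Capitals mark the bases that differ from b6995_5_6.

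b6995_5_6: aggcgaccacggtgggttcagcgac
b6995_5_5: aggcgaccacggtgggttTagcgac
b6995_5_9: agCTgaccacggtgggttcagcgac
b6995_5_8: agCTAaccacggtgggAtcagcgac

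Group 5 also has b6995_5_1, its first variant, and groups 2 and 4 are represented by their first variants, none of them with capitals. Group 3 is shown with b6995_3_2, the variant detected in the most samples of that group, and b6995_3_1, whose capitals mark the bases that differ from b6995_3_2.

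b6995_5_1: agcaggcgaccacagtatcagcgac
b6995_2_1: ggatttgggagaccatttccttcag
b6995_4_1: gtgactagaatcttggagaggtcag
b6995_3_2: cacttggtgcttgggtggcgcagct
b6995_3_1: TacttggtActtgggtggcgcagct

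The set was detected widely, and that breadth came from 1 probe group. A probe was counted as detected in a sample where over 0.5 of its spots were well above background by the scanner software's own test. Outlier-flagged spots were left out unless all 3 were flagged, in which case all 3 counted. All 3 were flagged in 66.6% of the set's values and 89.8% of the series' values, against 10.7% outside the set. Over all members and samples 73.4% of values were detected, against 20.7% for the 4304 probes outside the set, which placed it 2nd among the 66 sets. Group 1 supplied 97.1% of the set's detected values and the 96-variant series alone 93.4%. Without the series the other 41 members were detected in 16.3% of their values, against a median of 12.0% over the sets.

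Detection was nearly all or nothing. Of the 137 members 60 were detected in all 25 samples, 42 in 20 to 24 samples, 11 in 1 to 6 samples and 24 in none, and no member lay between 7 and 19 samples. The 60 comprised 59 of the series and b6995_5_6. On the whole chip 9.12% of probes were detected in all samples, against 43.8% of the set.

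The 4 groups outside group 1 gave little. All 13 variants of group 2 were undetected in all samples, and their highest raw signal in any sample was 689. Of the 6 variants of group 4 only b6995_4_4 was detected, in 1 A+PO sample. In group 3, b6995_3_2 was detected in 6 samples, b6995_3_5 in 2 and b6995_3_4 in 1, and the other 3 in none.

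In group 5, b6995_5_6 was detected in 25 samples and b6995_5_5 in 23, while b6995_5_10 reached 4 samples and the remaining variants 0 to 3. The samples PO 1 and A+PO 1, which lay on the same array, each detected 7 of the 10 variants. No other sample detected more than 3 of them. That array also had the highest median raw signal over all probes in its dye, 513 in PO 1 against 86.1 to 125 in the other PO samples and 169 in A+PO 1 against 72.8 to 88.4 in the other A+PO samples. Whether its overall brightness bears on these detections was not tested.

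Detection separated close relatives in group 5. The variants b6995_5_6 and b6995_5_9 differed by G3C and C4T, and the first was detected in 25 samples and the second in 0. This pair was singled out after its values were seen. It was the only pair of variants in the set at 1 or 2 differences whose detection differed by at least 20 samples. Pairs were counted where at least 1 variant was ever detected. In the set 0 of 397 pairs 1 base apart and 1 of 1193 pairs 2 bases apart (0.0838%) differed that much. Outside the set 2.21% of the pairs 1 base apart and 3.34% of those 2 bases apart did, so such gaps were rarer in the set.

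The raw signal of b6995_5_9 ran from 61.9 to 633 in PO with a median of 88.7, from 65.4 to 113 in A+PO with a median of 80.0, from 83.2 to 192 in LO with a median of 103 and from 53.6 to 66.1 in A+LO with a median of 60.9. In b6995_5_6 it ran from 20290 to 316100 in PO with a median of 155500, and from 8559 to 605500 in A+PO with a median of 260300. In LO that probe ran from 4684 to 588200 with a median of 35050, and in A+LO from 68.0 to 148600 with a median of 2076. Samples of each diet thus spread widely for b6995_5_6, and the ranges of all 4 diets overlapped. Its lowest value, 68.0 in A+LO with LO 4, was below the local background of 72.0 there although the software counted the probe as detected.

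The pair of variants 1 base apart with the largest gap in detection was b6995_1_6, detected in 20 samples, and b6995_1_9, detected in 25. They differ at the 14th base, written A14C from b6995_1_9. The same change separates b6995_1_39 from b6995_1_1 (25 and 24 samples), b6995_1_87 from b6995_1_4 (24 and 24) and b6995_1_101 from b6995_1_5 (25 and 23). A changed start went with a larger loss. The variants b6995_1_2 and b6995_1_3, whose bases 2 to 5 differ from the rest of group 1, were detected in 0 and 3 samples. From b6995_1_6 to b6995_1_2 the changes were G2A, G3A, T4C, G5T and T22C.

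Within the series the varied bases made little difference to detection. Every variant was detected in at least 22 samples. Grouped by base at each varied position, 96.7% to 98.7% of values were detected, the lowest being the 24 variants that carry A22C. Of 2400 values 52 were not detected, and 24 of these were in A+LO with LO 4. Without that sample 73 of the 96 variants were detected in every remaining sample.

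Some probes of another set begin like the series. The 6 probes of group 2 of set b6994 share its first 14 bases and were detected in 13 to 24 samples. They differ from the nearest series variant in 3 to 5 bases. The ones detected in the most samples and, together with b6994_2_3, in the fewest are shown, with capitals at the bases that differ from b6995_1_7.

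b6994_2_4: cggtgacagtgggaGgcGaAGGAgc
b6994_2_6: cggtgacagtgggaCgcGaAACcgc

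The share of the set detected depended on the rule for detection. By the software's test PO samples detected 75.3% ± 1.75 of the members (SD, n = 6), LO samples 73.6% ± 2.23 (SD, n = 6), A+PO samples 74.8% ± 3.05 (SD, n = 6) and A+LO samples 70.5% ± 7.75 (SD, n = 7). Counts ran from 100 to 107 members for PO, 95 to 103 for LO, 95 to 108 for A+PO and 73 to 102 for A+LO, and the 4 ranges overlapped. The sample called A+LO with LO 4 detected 73 members, and without it the share for this diet was 73.4% ± 1.71 (SD, n = 6). This sample also detected the fewest probes on the whole chip, 576.

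The probes outside the set fell further over the same diets, with shares of 23.5% ± 5.50 for PO, 19.7% ± 3.05 for LO, 23.3% ± 6.16 for A+PO and 17.2% ± 2.74 for A+LO (SD, same n). These shares were not tested. With a signal more than 3 SDs of the background pixels above the local background as the rule, the set's shares were 90.0% for PO, 93.3% for LO, 74.3% for A+PO and 57.4% for A+LO, so the Cy3 groups lay above the Cy5 groups and LO above PO. The shares outside the set by this rule are not given, so no trait of the set is read from these values. The diets also differed in how far detected values lay above background. In the series no detected value in PO or LO was under 1.5 times its local background, against 0.880% in A+PO and 12.0% in A+LO, the Cy5 groups. Outside the set these shares were 0% in PO and LO, 6.34% in A+PO and 23.1% in A+LO. The median ratio of signal to local background among detected series values was 188 for PO, 286 for LO, 31.8 for A+PO and 14.5 for A+LO. Outside the set it was 427 for PO, 352 for LO, 108 for A+PO and 64.2 for A+LO. The lower values in the Cy5 groups were thus not particular to the series.

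The raw signal of the series varied more between samples than its detection did. The median over the 96 variants ran from 2868 to 15740 in PO with a median sample at 9213, and from 857.6 to 6559 in A+PO with a median sample at 2576.5. In LO it ran from 2160 to 73120 with a median sample at 14343.5, and in A+LO from 85.8 to 17380 with a median sample at 636.0. The A+LO samples reached lower than the rest, but A+LO 1, on the array of LO 3, was above every PO sample, so the groups overlapped.

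Between samples the variants of the series mostly went up and down together. On the scaled log2 values, pairs of series variants had a median Pearson correlation of 0.83 over the 25 samples (5th to 95th percentile 0.42 to 0.96), and pairs 1 base apart a median of 0.87. All pairs of the 1153 kept probes had a median of 0.33. After subtracting each sample's median over kept probes the series pairs still had a median of 0.69 and all pairs 0.19. These correlations are descriptive, since variants share libraries, arrays and most of their sequence. Group 5 did not follow the series: b6995_5_6 had a median correlation of 0.04 with the 96 variants and b6995_5_5 of 0.36, and the correlation between these 2 probes was 0.56.

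The series variants b6995_1_91 and b6995_1_92 departed from the rest and were singled out after their values were seen. Their correlation with the median of the series was -0.35 and -0.12, while the next lowest of the 96 was 0.64 and the median 0.93. The 2 differ by C23T and otherwise combine A18G, T20G and A22C. The raw signal of b6995_1_91 ran from 46710 to 290700 (median 182700) for PO, 1617 to 638200 (median 569900) for LO, 30400 to 647100 (median 193000) for A+PO and 282.8 to 603300 (median 172400) for A+LO. Its 2 lowest samples in all were LO 3 and A+LO 1, which lay on 1 array, and these were the samples with the highest series median in LO and in A+LO.

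The 2 samples of an array were alike. The level of the series relative to the median of kept probes correlated between the Cy3 and the Cy5 sample with r = 0.83 over 12 arrays (Spearman's rho 0.76), and for b6995_1_91 with r = 0.93 (rho 0.92). On the arrays of the control oil the relative levels of PO and A+PO were -1.14 and -1.71, -0.98 and -1.19, 0.62 and 0.55, 0.52 and 0.72, 0.83 and 1.00, and 0.15 and 0.14 (log2, arrays in the order of the PO sample's number). On the linseed arrays they were 3.36 and 3.14 for LO 3 and A+LO 1, 1.94 and 3.30 for LO 11 and A+LO 9, and 2.51 and 0.21 for LO 4 and its A+LO partner, with both samples between 0.31 and 0.59 on the remaining 3. What belongs to the array and what to the samples on it cannot be told apart.

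Differences between diets were tested in limma over the 1153 probes that 6 or more samples detected, with the array as a random block and Benjamini-Hochberg adjustment within each comparison. Of the set, 103 members were tested: all 96 of the series, b6995_1_1, b6995_1_4, b6995_1_5, b6995_1_6, b6995_5_5, b6995_5_6 and b6995_3_2. The other 34 were detected in too few samples. Values are log2 intensities scaled to each sample's 75th percentile over 405 probes detected everywhere, and a difference is given with its standard error (SE). Differences are those of the fit with the array block and can depart from differences between the printed group means. Because scaling moves all probes, each median of the members is given beside that of all tested probes.

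Linseed against control oil without aleurone asked whether the oil changed the bacteria. No member passed the test in either direction, against 0% of all tested probes higher and 0% lower. The median member differed by -0.54 and the median probe by -1.10. Of all 1153 tested probes 26 had an unadjusted p under 0.05, all of them lower. Of the 103 members 1 had, b6995_5_6. It was lower, at -2.93 (SE 1.19, limma adjusted p = 0.756), and 5 of 6 LO samples lay under the PO mean. Its levels were -1.10 ± 1.65 for PO and -4.15 ± 2.36 for LO on the log2 scale (SD, n = 6 each). The next smallest p belonged to b6995_1_70, with -1.97 (SE 1.14, limma adjusted p = 0.756, 5 of 6 samples), which turned to 0.18 with loess scaling, 0.56 with quantile scaling over all samples and 0.66 with quantile scaling within each dye.

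The same oil comparison with aleurone also gave 0 members past the test, against 0% of all tested probes higher and 0% lower. The median member differed by 0.82 and the median probe by 0.68. Probe b6995_5_6 had the smallest p among the members, with -3.64 (SE 1.17, limma adjusted p = 0.567), opposite in sign to the median member. This is no independent repeat of the comparison without aleurone, since the samples shared 12 arrays. On these the relative level of b6995_5_6 correlated between the Cy3 and the Cy5 sample with r = 0.82 (Spearman's rho 0.79). Of the 7 A+LO samples 6 lay under the A+PO mean. Its levels were -2.36 ± 2.49 in A+PO (SD, n = 6) against -6.00 ± 2.34 for A+LO (SD, n = 7). Of the 103 members it was the 1 with an unadjusted p under 0.05, against 87 of all 1153 tested probes, 18 of them lower. The next was b6995_1_74 with 2.57 (SE 1.27, limma adjusted p = 0.567, 5 of 7 samples), which turned to -0.21 with the median of all probes as scale. Without the filter on dim probes 35 members passed, 34 of them higher, where 3102 of all 4441 probes were higher.

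Aleurone with the control oil went with lower scaled values almost throughout the set. Of the 103 members 101 were lower and 0 higher, against 66.1% of all tested probes lower and 0% higher. The median member differed by -2.82 and the median probe by -1.98, which leaves -0.83 for the members relative to all probes. Over the series the difference ran from -3.26 to -1.35, and its medians by base at the 5 varied positions stayed between -2.96 and -2.71.

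The largest difference was in b6995_1_4, whose raw signal was 3464 to 19720 in PO with a median of 11100 and 128 to 5789 in A+PO with a median of 3436. It was lower, at -3.36 (SE 0.558, limma adjusted p = 0.000212) and lower on 6 of 6 arrays. The series variant b6995_1_55 followed, with -3.26 (SE 0.614, limma adjusted p = 0.000348, 6 of 6 arrays). The 2 members that missed the threshold were b6995_1_92 and b6995_5_6, the latter with -1.26 (SE 0.595, limma adjusted p = 0.0608, 5 of 6 arrays). Relative to the median probe b6995_5_6 stood at 0.72, and its sign turned when samples were scaled to the median of all probes (0.14) or of the kept probes (1.58).

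This comparison changed with the scale. Its counts under other settings stand without the share of all tested probes called there and are not read as results about the set. With the median of the kept probes as scale, or quantile scaling over all samples, 0 members passed, and the median member stood at 0.03 and -0.03. With loess scaling 2 members passed and the median was -0.35. Loess removes the Cy5 minus Cy3 trend of an array along signal height, which holds dye and aleurone together. Without the array block 0 members passed, with the same median of -2.82. The position of the series against the kept probes is left as it is by a scale that subtracts 1 value per sample. Within each of the 6 arrays the median per-probe Cy5 minus Cy3 difference was lower over the series than over the kept probes. The gap ran from -1.46 to -0.52 (mean -0.95 ± 0.37, SD, n = 6). The relative levels given above compare medians of levels instead, and they went both ways. They went from -1.14 in PO 1 to -1.71 in A+PO 1, but from 0.52 in PO 4 to 0.72 in A+PO 4. A dye effect particular to these sequences would move the gap. Scalings that act on signal height did move such a relative value: the median member relative to the median probe was -0.16 with loess and 0.04 with quantile scaling over all samples. The GC content of the series was 62.7% on average, against 50.2% over all probes, and its part in the result was not tested.

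Aleurone with linseed oil gave fewer calls. Of the 103 members 7 were lower and 0 higher, against 4.08% of all tested probes lower and 0.867% higher. The median member differed by -1.45 and the median probe by -0.24, or -1.21 relative to all probes. The 7, listed whole although the naming rule covers fewer, were b6995_1_4, b6995_1_22, b6995_1_24, b6995_1_25, b6995_1_73, b6995_1_93 and b6995_5_6. Variant b6995_1_25 was lower, at -2.31 (SE 0.594, limma adjusted p = 0.0338, 5 of 6 arrays), with raw signals of 4383 to 121200 in LO (median 36590) and 92.8 to 30920 in A+LO (median 1103). Variant b6995_1_4 was lower, at -2.30 (SE 0.553, limma adjusted p = 0.0256, 6 of 6 arrays), with 2891 to 50760 in LO (median 22270) and 63.6 to 4615 in A+LO (median 364.6). The ranges of both diets overlapped for both probes.

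The count moved with the array of LO 4. Its scaled series difference was 1.82, with 2 of 96 variants lower, while on the other 5 linseed arrays it ran from -3.04 to -0.56 with 91 to 96 variants lower. The median over the kept probes ran from -1.01 to 0.21 on those 5. It was 4.18 on the array of LO 4, so the rise there was not particular to the series. Without that array 97 members were lower, the 7 among them, against 464 of all probes lower and 41 higher, and without LO 4 alone the count was also 97, without its A+LO partner 96 and without A+LO 1 it was 34. Without any single other sample of the 2 diets it was 0 to 2. The counts without a single sample stand without the share of all tested probes called there. On the array of LO 4 the unscaled signals went the other way: the series median was 2160 in Cy3 and 85.8 in Cy5. The median local background of the series there was 55.3 in Cy3 and 69.9 in Cy5, so the Cy5 values lay near background. On all 6 linseed arrays the median per-probe Cy5 minus Cy3 difference was lower over the series than over the kept probes. The gap ran from -2.36 to -0.77 (mean -1.47 ± 0.61, SD, n = 6), with LO 4 at the low end. The relative levels given above, which compare medians of levels, went both ways. They went from 2.51 in LO 4 to 0.21 in its A+LO partner, but from 1.94 in LO 11 to 3.30 in A+LO 9.

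The count also depends on the scale. The counts that follow stand without the share of all tested probes called in each setting. It was 96 to 100 lower with the background-subtracted signal, the processed signal, quantile scaling within each dye or the median of all probes as scale, 37 with loess and 0 with quantile scaling over all samples. With the median of the kept probes as scale 3 members were higher and 0 lower. These were b6995_3_2, b6995_1_6 and b6995_1_91, and the first was not detected in A+LO. Keeping the outlier-flagged spots gave 99 lower. In the fits with no array block, with the array as a fixed block or with only the LO and A+LO samples, 0 members passed. Variant b6995_1_91 stood at 0.67 (SE 0.590, limma adjusted p = 0.429), but its sign turned with the background-subtracted signal (-0.14), the processed signal (-0.18), the median of all probes as scale (-0.76) and the replicate block (-0.70).

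The interaction asked whether the aleurone difference changed with the oil, taken as the difference with linseed oil less that with the control oil. Additive effects of dye and slide cancel in it, while effects that are not additive need not. Probe b6995_2_1, detected in no sample, had mean log2 levels of -11.15 in PO and -12.38 in A+PO. In LO it stood at -10.76 and in A+LO at -9.52. An undetected probe thus also fell with aleurone on the control oil and rose with it on linseed oil. Of the members 3 were higher and 0 lower, against 28.2% of all tested probes higher and 0% lower. The median member was at 1.35 and the median probe at 1.51. The series gave 1 call among 96, b6995_1_70, with 2.22 (SE 0.804, limma adjusted p = 0.0373, 6 of 6 linseed arrays above the mean of the control-oil arrays). Its log2 levels were -6.11 ± 1.02 for PO, -7.80 ± 2.08 for LO, -9.19 ± 1.32 for A+PO (SD, n = 6 each) and -8.93 ± 2.38 for A+LO (SD, n = 7). The A+LO raw signals of b6995_1_70 ran from 67.4 to 1928 with a median of 101.9, and 5 of the 7 samples detected it. The sign of its interaction turned with loess (-0.14), the median of all probes (-0.59) and both quantile scalings (-0.34 and -0.36).

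The other 2 were b6995_3_2 with 3.38 (limma adjusted p = 0.011) and b6995_1_6 with 2.68 (limma adjusted p = 0.0242). The raw signal of b6995_3_2 ran from 107.9 to 4339 for PO (median 436.3), 100.7 to 208.8 for LO (median 151), 84.3 to 1589 for A+PO (median 93.96) and 57.1 to 81.0 for A+LO (median 68.8). It was detected in 3, 1, 2 and 0 samples of these diets, so it passed the filter almost wholly through the control-oil samples and its linseed values lie mostly at background. Its sign turned with quantile scaling over all samples (-0.13) and within each dye (-0.024). For b6995_1_6 the A+LO signals ran from 65.6 to 94.9, although the software counted it as detected in 5 of those 7 samples. With the median of all probes as scale 32 members were lower and none higher, and with loess, quantile scaling or the median of the kept probes 0 passed. The count was 0 without PO 1, and between 1 and 9 without any single other sample. The shares of all tested probes under these alternatives are not given.

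The spots of the set were flagged as outliers far more often than others. The software marked 72.5% of the set's spots and 20.7% of the other probes' spots, and in the series all 3 spots of a probe were marked in 89.8% of values. Such values were kept as the mean of the 3 spots. Marking varied with brightness: between a raw signal of 1000 and 10000 it covered 99.7% of the set's spots and 94.9% of the others, and under 200 it covered 8.71% and 4.45%. Above 100000 it covered 73.2% and 40.0%. Among detected values the 3 spots of a series variant had a median SD of 0.48 on the log2 scale, against 0.37 for probes outside the set.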

How the data were processed

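Set b6995 was measured by 16S rRNA gene amplicons of 25 faecal samples on 13 arrays of both dyes with 14080 spots each, 3 spots per probe. Per the labels' protocols, 10 ng of DNA was amplified over 35 cycles, 1 µg of product was labelled and 250 ng was hybridised. What the authors deposited is linear spot intensity from Agilent Feature Extraction (version 10.5.1.1, per the file headers). The mean spot intensity and median local background were used as deposited. The deposited background-subtracted and processed intensities were alternatives. Of the deposited channels 1, in Cy3, belongs to no sample listed here and was set aside.

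The dyes were processed as separate single channels, with normexp background correction (offset 50), log2, averaging of spots without outlier-flagged ones unless all were flagged, and subtraction of the 75th percentile over the 405 probes detected in all samples. Probes detected in at least 6 samples (1153) were fitted in limma 3.58.1 (R 4.3.3) with 4 group means and the array as random block (correlation 0.760). Adjusted p under 0.05 (Benjamini-Hochberg over all 1153 probes) passed. Alternatives covered signal, scaling, filter, blocks and left-out samples. The fit was tested on simulated data. Tables were made in Python 3.11.15. The number of arrays limits precision.

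PO and A+PO samples of the same number shared an array, and their deviations from the group means correlated at 0.87 to 0.94, so the array block is the pairing. Numbers shared by LO and PO or by LO and A+LO marked different arrays.

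Members and lists were chosen with earlier results of these data known. Named probes were the first variant of each probe group, per comparison up to 2 higher and 2 lower members past the test detected throughout 1 compared group and in at least 1 sample of the other (otherwise the 2 with the smallest p), and the pair of variants 1 base apart with the largest gap in detection. Others are said to be chosen after their values were seen.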

Additional observations from a re-analysis of the deposited data

Results flagged for a closer look

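In A+LO, the sample on the array of LO 4 detected 73 members, apart from the other 6 samples at 96 to 102. In LO, the log2 level of b6995_1_91 in LO 3 was -6.60, apart from the other 5 samples. Samples were compared in this way for 40 combinations of measure and diet, and chance gives such a gap in about 1 in 20. The interaction test in limma called 3 members, b6995_3_2 at 3.38, b6995_1_6 at 2.68 and b6995_1_70 at 2.22, and without PO 1 it called 0. For 2 of them signals lay near background: b6995_3_2 was detected in 1 LO and 0 A+LO samples, and b6995_1_6 had A+LO signals of 65.6 to 94.9. The third, b6995_1_70, also reached low in A+LO, with signals of 67.4 to 1928 (median 101.9) and detection in 5 of 7 samples. The sign of b6995_1_70 turned under 4 scalings and that of b6995_3_2 under 2. No difference between the oils is read from these 3 members.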

How the results depend on the processing

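The oil comparisons had 0 members past the test under the alternatives run, save 35 with aleurone without the filter on dim probes. For A+PO against PO, 101 members passed, 2 with loess, and 0 with the median of kept probes, quantile scaling over all samples or no array block. For A+LO against LO, 7 passed. That count was 99 with the background-subtracted signal, quantile scaling within each dye or flagged spots kept, 96 with the processed signal, 100 with the median of all probes, 97 without the array of LO 4, 37 with loess, 15 with probes detected in at least 13 samples, 3 (higher) with the median of kept probes, and 0 with quantile scaling over all samples, no filter, no array block, a fixed array block, the replicate block or only these groups. The interaction count was 3, and became 48 without the filter, 32 (lower) with the median of all probes, 12 with flagged spots kept, 1 with the background-subtracted signal, and 0 with the processed signal, loess, the median of kept probes, both quantile scalings, the 13-sample filter or no array block. Leaving out 1 sample gave 0 to 0 members for both oil comparisons, 99 to 102 for A+PO against PO, 0 to 97 for A+LO against LO and 0 to 9 for the interaction. The replicate block gave 103 members for A+PO against PO and 0 for LO against PO. No paired analysis was possible for A+LO against A+PO because they share 1 number, nor for the interaction. Array as a fixed block could not be fitted for the oil comparisons. With detection at 3 background SDs the share of members was 90.0% in PO, 93.3% in LO, 74.3% in A+PO and 57.4% in A+LO. The shares outside the set by this rule are not given. Without each sample in turn the shares were 74.7% to 75.8% for PO, 74.0% to 75.9% for A+PO, 73.3% to 74.5% for LO and 69.8% to 73.4% for A+LO. Signs turned for b6995_1_70 in LO against PO (0.18 with loess, 0.56 and 0.66 with the quantile scalings) and in the interaction (-0.14, -0.34 and -0.36 with the same, -0.59 with the median of all probes), for b6995_3_2 in the interaction (-0.13 and -0.024 with the quantile scalings), for b6995_1_74 in A+LO against A+PO (-0.21 with the median of all probes), for b6995_5_6 in A+PO against PO (0.14 and 1.58 with the medians of all and of kept probes) and for b6995_1_91 in A+LO against LO (-0.14 and -0.18 with the background-subtracted and processed signals, -0.76 with the median of all probes, -0.70 with the replicate block). Keeping flagged spots and leaving out the arrays of PO 1 or LO 4 were chosen after seeing the data. The cause of these changes was not tested. Most counts under the alternatives stand without the share of all tested probes called there. They show how the count moved and are not read as results about the set.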
